A study of Mus musculus with 24 samples.

Results

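CHOP-/- cells were compared with wild type cells after 4 h of tunicamycin, an early point of endoplasmic reticulum (ER) stress. The comparison took the 4 arrays of CHOP-/- cells and the 4 arrays of wild type cells at that time, 8 of the 24 arrays of a study of cultured primary mouse embryonic fibroblasts. The labels give both groups tunicamycin at 2 µg/ml for 4 h and differ only in genotype. The other 16 arrays were CHOP-/- and wild type cells left untreated or given 8 h of tunicamycin, again 4 arrays each with the letters A to D. No age of the embryos, strain, or way in which the CHOP allele was disrupted is given in the labels. Passage 3 is written on 3 untreated wild type arrays alone, and no label names a solvent control. Nothing says whether A to D were grown as separate cultures, so p-values measure the spread between these samples, which may be technical.

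Tunicamycin blocks the first step of N-linked glycosylation, so that unfolded glycoproteins gather in the ER. Of the sensors that answer, PERK phosphorylates eIF2α, which slows translation while the transcription factor ATF4 is made, and ATF4 turns on Ddit3, the gene of CHOP. CHOP is a C/EBP family factor known for its part in the death of stressed cells and for genes that restart protein synthesis and oxidize the ER.

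Total RNA was measured on oligonucleotide arrays, and the deposited probe set signals (unit: intensity) are the values printed for single arrays. Levels of different genes are not comparable on this scale, since each probe set has its own response. A gene was called when its log2 difference, CHOP-/- minus wild type, had a Benjamini-Hochberg adjusted p under 0.05 in limma over 5688 tested genes. Median signals lay between 58.85 and 65.3 on the CHOP-/- arrays and between 48.2 and 72.6 on the wild type arrays. Of 12 tested fibroblast markers none was called, beside 2.5% of all tested genes. The collagen gene Col1a1 had signals of 6446.8 to 10200.6 in CHOP-/- cells and 5923.6 to 8451.4 in wild type cells. The probe set of Vim, a fibroblast marker, read near background in both groups, at 13.5 to 34.8 in CHOP-/- cells and 8.4 to 28.2 in wild type cells. Whether this probe set reports Vim RNA was not tested, so the readings do not show that Vim was low.

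Wild type arrays A and B stood apart in leukocyte genes. The summed signal of the 34 leukocyte markers on the array was 2539.3, 1248.4, 2422.5 and 1249.3 on CHOP-/- arrays A to D, against 5096.7, 7636.2, 1300.1 and 1558.9 on wild type arrays A to D. Both wild type A and B lay above all of the other 6 arrays at 4 h for 23 of the 34 markers, and above wild type C and D for 30. How often this order holds over all tested genes was not counted. Over the 17 tested markers the median ratio of A and B to C and D was 3.78. Lyz2, the lysozyme of macrophages, had signals of 229.2, 69.9, 111.3 and 60.4 in CHOP-/- cells and 825.7, 1563.4, 145.8 and 112.1 in wild type cells. Ptprc, which encodes CD45, read 12.6, 0.7, 7.4 and 1.2 in CHOP-/- cells and 19.2, 32.9, 5.3 and 4.8 in wild type cells. The split was not confined to leukocyte genes. On wild type A to D the fibroblast marker Dcn had 2373.5, 2231.6, 514.6 and 710.7, and Lum had 158.7, 448.4, 43.8 and 79.2. For the fibroblast markers Col1a1, Col1a2, Col3a1 and Fn1, A and B did not both lie above C and D. None of the 17 tested leukocyte markers was called between the genotypes, beside 2.5% of all tested genes. The median of the tested markers was −0.72 with all arrays and 0.14 without wild type A and B. In bulk RNA, fewer cells of a type and less RNA per cell cannot be told apart.

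**Figure D1:**
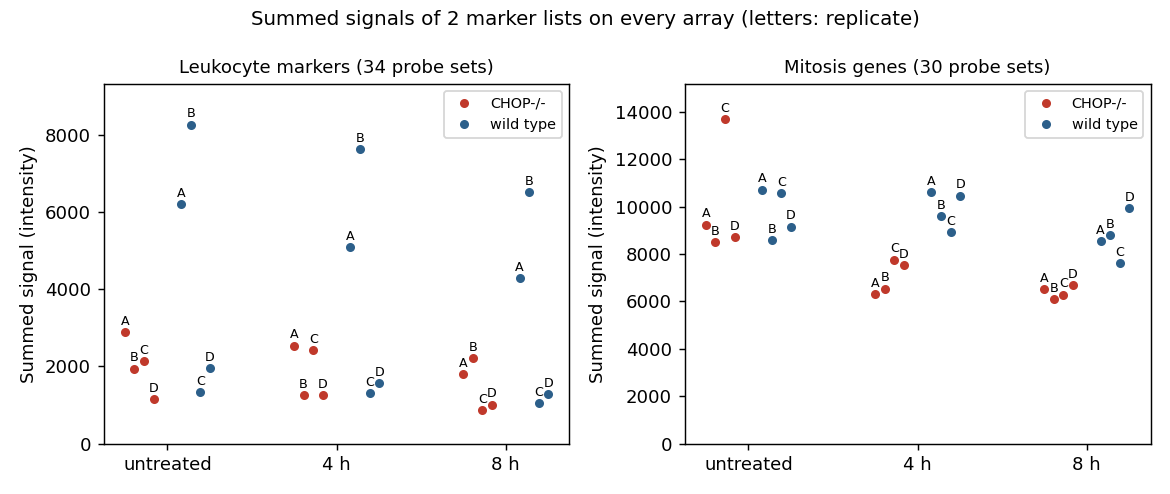
Summed signal (intensity) of the 34 leukocyte markers (left) and of the 30 tested mitosis genes (right) on every array, with CHOP-/- arrays in red left of wild type arrays in blue at each time and the replicate letter above each point. Wild type A and B are high in leukocyte markers at all 3 times. In mitosis genes all 4 CHOP-/- arrays lie below all 4 wild type arrays at 4 h and at 8 h, but not untreated.

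Ddit3 itself checked the labels. Its signal was 33.4, 15.6, 40.4 and 36.9 on CHOP-/- arrays A to D, against 2773.9, 4396.6, 3379.7 and 4059.1 on wild type arrays A to D. Every CHOP-/- array was near background and every wild type array was high. The fitted log2 difference was −6.73 (SE 0.35, limma adjusted p = 5.28e-12), and the exact two-sided permutation p over the 70 splits of the 8 arrays was 0.0286, the smallest they can give. CHOP-/- array B lay under the filter's signal of 27.8, and raising it to that value bounds the fold, which is at least 111-fold lower in CHOP-/- cells. Whether the probe set lies inside the disrupted stretch of the gene is not given in the files or labels. Of the neighbourhood of Ddit3 in the GRCm38.p6 annotation, with 25 coding genes on either side, 19 genes were tested besides Ddit3 itself. None was called, beside 2.5% of all tested genes, with log2 differences from −0.44 (Os9) to 0.60 (Pip4k2c).

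In all, 142 of the 5688 genes were called at 4 h (2.5%). Of these, 67 were higher in CHOP-/- cells (1.18% of tested genes) and 75 were lower (1.32%). The difference was at least 2-fold for 27 of the higher and 25 of the lower genes. The normalized values of the 8 arrays did not overlap between the genotypes for 137 of the 142, the exceptions being Ltbr, Map6, Mras, Adm and Nasp. This held for 7.88% of all tested genes, 4.18% with CHOP-/- higher and 3.69% with CHOP-/- lower. The median log2 difference was 0.88 for higher genes and −0.89 for lower genes, beside 0.014 over all tested genes. An unadjusted p under 0.05 was reached by 881 genes (15.5%). Leaving out CHOP-/- C gave 40 higher and 40 lower genes, leaving out CHOP-/- D gave 39 higher, and leaving out wild type B gave 36 and 42. Without wild type A and B, with 6 arrays left at 4 h, 16 genes were called higher and 17 lower. All 67 higher genes kept their sign in that fit (median 0.79), as did the 74 lower genes that it tested (median −0.80), and an unadjusted p under 0.05 was reached by 66 and 73 of them. These genes had been picked in a fit that held the same 6 arrays, so their signs and p-values here are no independent check.

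**Figure D2:**
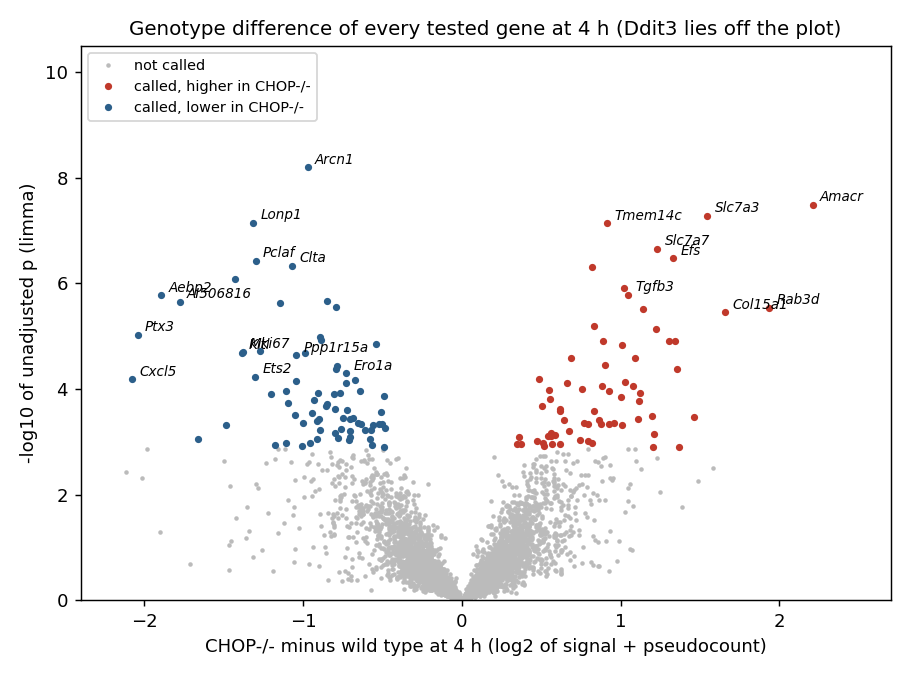
Log2 difference of CHOP-/- minus wild type at 4 h (x axis) against −log10 of the unadjusted limma p (y axis) for every tested gene but Ddit3, which lies off the plot. The 67 genes called higher in CHOP-/- cells are red, the 75 called lower blue, and those not called grey, with some of the largest named.

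Genes reported to need CHOP are given first. Their list was chosen with earlier results of these data known, so its calls are not an independent check. Of the 8 tested, Ppp1r15a, Atf5 and Ero1a were called lower and none higher, against 1.32% called lower and 1.18% higher among all genes, and the median of the 8 was −0.47. Without wild type A and B none of the 3 was called, with Ppp1r15a at −0.95 (limma adjusted p = 0.0889), Atf5 at −0.98 (0.0939) and Ero1a at −0.74 (0.0824), and the median was −0.46. Ppp1r15a encodes GADD34, the subunit that directs a phosphatase to eIF2α and so lets translation restart. Its promoter is shown because it is the only one of the 3 with a full cyclic AMP response element, TGACGTCA, which is in capitals. The window runs from 250 bases before to 50 bases after the transcription start, on the minus strand at chr7:45526219-45526518 (RefSeq, GRCm38.p6).
Ppp1r15a: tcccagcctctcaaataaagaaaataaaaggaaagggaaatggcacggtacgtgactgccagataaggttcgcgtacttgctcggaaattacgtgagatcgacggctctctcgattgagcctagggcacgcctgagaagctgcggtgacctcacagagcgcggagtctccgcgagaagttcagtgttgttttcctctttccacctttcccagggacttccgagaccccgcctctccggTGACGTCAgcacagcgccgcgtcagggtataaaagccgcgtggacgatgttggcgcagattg
Searched on both strands, TGACGTCA stands in 3.55% of the promoters found for 4619 of the 5688 tested genes, and the C/EBP-ATF composite letters TGATGNAAT stand in 0.455%. The second motif is in none of the 3 promoters. A match describes the letters and is not a site.

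Ppp1r15a had signals of 604.6, 486.4, 395.6 and 453.7 in CHOP-/- cells, against 1132.9, 929.4, 834.1 and 1052.6 in wild type cells. The groups did not overlap, with the lowest wild type array, C, above the highest CHOP-/- array, A. The log2 difference was −1.04 (SE 0.20, limma adjusted p = 0.00353), beside −0.39 untreated (adjusted p = 0.598) and −0.96 at 8 h (adjusted p = 0.00459). Relative to untreated cells of the same genotype the gene rose by 1.09 log2 in CHOP-/- cells and by 1.74 log2 in wild type cells, and the difference between these responses was not called (−0.66, adjusted p = 0.996).

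Ero1a is the oxidase that passes disulfide bonds to protein disulfide isomerase. Its signals were 689.4, 769.5, 426.6 and 579.3 in CHOP-/- cells and 1004.7, 961.5, 845.5 and 1240 in wild type cells. CHOP-/- array C was the lowest of the 8, and the groups did not overlap. The log2 difference was −0.73 (SE 0.15, adjusted p = 0.00654), beside −0.23 untreated (adjusted p = 0.704) and −0.79 at 8 h. Its other probe set was not called at 4 h (−0.49, adjusted p = 0.431 in a fit of every probe set). Ero1b, the related oxidase, had a difference of −0.81 that was not called (adjusted p = 0.269), with signals of 19.4 to 104.8 in CHOP-/- cells and 43.3 to 145.3 in wild type cells.

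Atf5, a transcription factor gene of the ATF4 pathway, was lower at each time. Its signals at 4 h were 572.4, 422, 417.5 and 424.2 in CHOP-/- cells and 1181.4, 775.1, 1109.4 and 759 in wild type cells. All wild type arrays lay above all CHOP-/- arrays. The log2 difference was −1.04 (SE 0.22, adjusted p = 0.00819), beside −0.88 untreated (adjusted p = 0.0469) and −1.14 at 8 h.

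Trib3, a pseudokinase gene that ATF4 and CHOP drive, just missed the threshold. Its signals were 560, 631.3, 635.1 and 664.9 in CHOP-/- cells and 854.9, 1564.4, 1236.4 and 1278 in wild type cells, again without overlap. The log2 difference was −0.94 (SE 0.27, adjusted p = 0.0622). The others of the 8 were not called, with values of −0.21 for the BH3-only gene Bcl2l11, −0.17 for Dpysl2, 0.051 for Nupr1 and 0.32 for Tenm4. Car6, a carbonic anhydrase gene reported to need CHOP, lay under the filter, with signals of 3.8 to 5.1 in CHOP-/- cells and 22 to 29.8 in wild type cells.

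**Figure D3:**
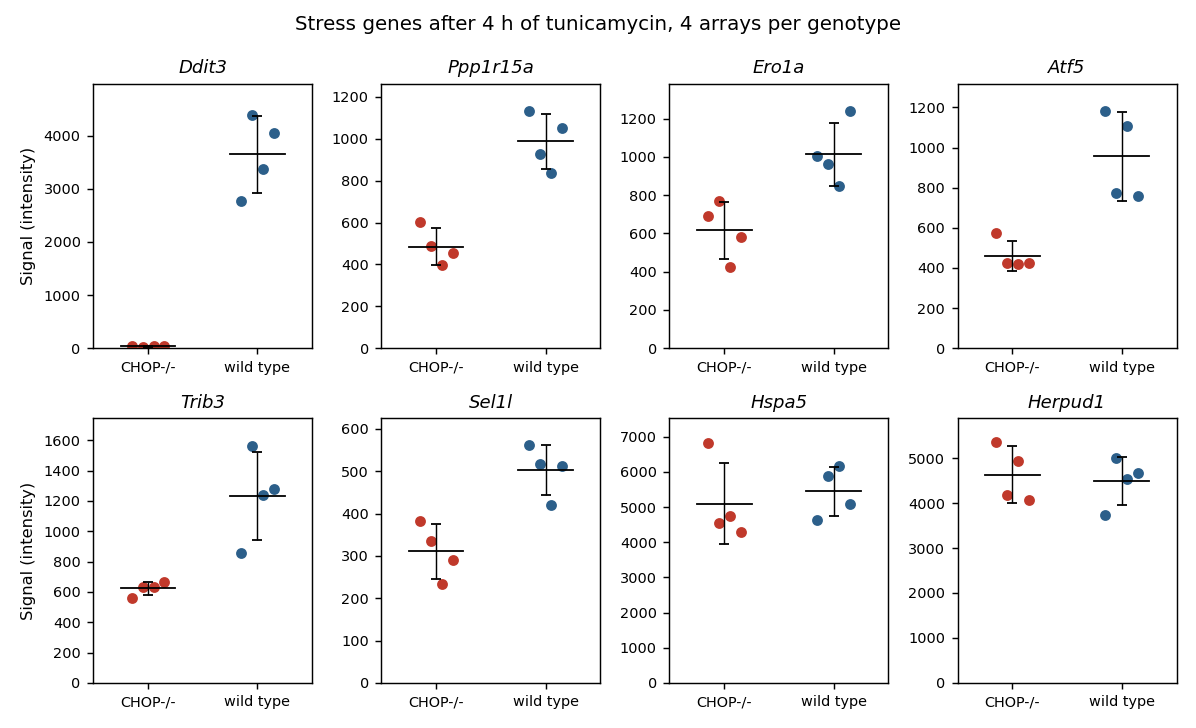
Signal (intensity) of 8 stress genes on the 4 CHOP-/- arrays (red, left) and the 4 wild type arrays (blue, right) at 4 h, with the mean as a line and the SD as bars. Ddit3, Ppp1r15a, Ero1a, Atf5, Trib3 and Sel1l have no overlap between the genotypes, while Hspa5 and Herpud1 overlap.

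Among 26 ER chaperones and folding enzymes, Ero1a alone was called, lower, beside 1.32% called lower among all genes, and the median was −0.13. Without wild type A and B, and with only the 8 arrays at 4 h in the fit, no gene of this list was called. Hspa5, which encodes the chaperone BiP, had signals of 6818.8, 4549.3, 4730.5 and 4288.2 in CHOP-/- cells and 4638, 5875.4, 6172.6 and 5087.3 in wild type cells, with overlap and a log2 difference of −0.17 (SE 0.10, adjusted p = 0.458). Herpud1, a membrane protein of ER-associated degradation, ranged from 4060.1 to 5367.2 in CHOP-/- cells and from 3738.9 to 5003.9 in wild type cells, with a difference of −0.009 (SE 0.11, adjusted p = 0.981). Neither Dnajb9, a BiP co-chaperone gene (−0.32, adjusted p = 0.513), nor Rabepk (−0.67, adjusted p = 0.24) was called. Of 7 tested stress sensors and their direct factors none was called, beside 2.5% of all tested genes. Xbp1, the spliced factor of the IRE1 arm, was at 0.14 (adjusted p = 0.647), Atf6 at −0.04 and Eif2ak3, the PERK gene, at −0.34.

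In ER-associated degradation 2 of 15 tested genes were called, both lower, beside 1.32% of all genes, and the median was −0.13. Neither was called without wild type A and B or with only the 8 arrays at 4 h in the fit, where the medians were −0.16 and −0.13. Sel1l, the adaptor of the HRD1 ubiquitin ligase, had signals of 383.4, 336.2, 232.7 and 291 in CHOP-/- cells and 561.2, 517.2, 419.2 and 512.1 in wild type cells. The groups did not overlap, and the log2 difference was −0.68 (SE 0.14, adjusted p = 0.00784). A second Sel1l probe set gave −0.78 and was not called (adjusted p = 0.222 in a fit of every probe set). Vcp, the ATPase that pulls proteins out of the membrane, had 2037.4, 2267.4, 2465.6 and 2282.1 in CHOP-/- cells and 2741.2, 3511.8, 2993.6 and 3113.6 in wild type cells, again without overlap, with a difference of −0.49 (SE 0.11, adjusted p = 0.0119). Another Vcp probe set, below the filter, went the other way (1.16, adjusted p = 0.0197 in a fit of every probe set), and the mean of the gene's probe sets gave 0.33 (adjusted p = 0.245).

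The PERK-ATF4 genes as a list divided. Of 20 tested, 3 were higher (Pck2, Vegfa and Asns) and 3 lower (Ppp1r15a, Atf5 and Cebpg), with a median of 0.085, beside 1.18% called higher and 1.32% lower among all genes. None of the 20 was called without wild type A and B (median −0.072), and with only the 8 arrays at 4 h in the fit 0 were higher and 3 lower. Atf4 itself had signals of 4338.5, 4492.8, 4329.4 and 3724.4 in CHOP-/- cells and 3611.6, 4163.9, 3895 and 4404.9 in wild type cells, a difference of 0.033 (SE 0.10, adjusted p = 0.913). Atf3, which follows ATF4, was not called (0.60, adjusted p = 0.647), with 537.3 to 1247.5 in CHOP-/- cells and 402.9 to 1274.4 in wild type cells.

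Pck2, the mitochondrial form of phosphoenolpyruvate carboxykinase, had signals of 1096.3, 1299.8, 1463.7 and 1585.5 in CHOP-/- cells and 733.5, 768.1, 934.8 and 900.2 in wild type cells. All CHOP-/- arrays were higher, and the log2 difference was 0.69 (SE 0.13, adjusted p = 0.00376). Vegfa, the endothelial growth factor, had 1157.5, 1048.1, 720.6 and 692.7 in CHOP-/- cells and 549.1, 424, 457.7 and 527.1 in wild type cells. It too showed no overlap (0.86, SE 0.21, adjusted p = 0.0248), and relative to untreated cells it rose by 1.29 log2 in CHOP-/- cells (adjusted p = 0.00104), against 0.72 in wild type cells (adjusted p = 0.0815), a difference in response of 0.57 that was not called (adjusted p = 0.996). Asns, asparagine synthetase, differed by 0.35 (adjusted p = 0.0464), and was not called in 13 of the 20 alternative settings. Cebpg, a C/EBP partner of ATF4, differed by −0.49 (adjusted p = 0.0299, not called in 11 of the 20), and the other 3 tested C/EBP genes were not called, with Cebpb at 0.13.

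Amino acid transporters held 3 calls among 11 tested genes, all higher, beside 1.18% of all genes, with a median of 0.091. Leaving out wild type A and B kept 2 calls, and Slc38a4 was then not called (0.69, adjusted p = 0.256). Slc7a3, a cationic amino acid transporter, had signals of 460.2, 577.5, 410.7 and 575.6 in CHOP-/- cells, against 171.5, 206.6, 159 and 156.4 in wild type cells. Every CHOP-/- array lay far above every wild type array, and the log2 difference was 1.55 (SE 0.20, adjusted p = 6.91e-05), with 1.33 untreated and 1.27 at 8 h, both called. Slc7a7, which exchanges cationic for neutral amino acids, had 154.9 to 205.5 in CHOP-/- cells and 66.9 to 94.7 in wild type cells (1.23, adjusted p = 0.000181), and was also called at both other times. Slc38a4, a neutral amino acid transporter, had 198 to 361.7 in CHOP-/- cells and 76.1 to 170.7 in wild type cells (1.12, adjusted p = 0.0136), and was called at 4 h only. The aminoacyl-tRNA synthetases, targets of ATF4 that charge transfer RNA, had no call among 18 tested genes and a median of −0.04, beside 2.5% called among all genes.

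Genes of mitosis, which act in chromosome segregation, held 9 calls at 4 h. Of 30 tested, 8 were called lower and 1 higher, against 1.32% and 1.18% of all genes, and 29 of the 30 had a negative difference, as had 2730 of all 5688 tested genes. The median of the list was −0.60 at 4 h, beside −0.025 untreated and −0.46 at 8 h. Its summed signal was 6304.5, 6542.3, 7764.6 and 7522.1 on the CHOP-/- arrays and 10606.5, 9583.2, 8920.7 and 10460.5 on the wild type arrays, so that the groups did not overlap. Untreated the sums did overlap, at 8496.9 to 13680.1 in CHOP-/- cells and 8582.8 to 10715 in wild type cells. At 8 h they again did not overlap, at 6087.6 to 6675.8 in CHOP-/- cells and 7620.7 to 9936.8 in wild type cells. Without wild type A and B the median was −0.58 and no member was called. With any single array at 4 h left out, 3 to 6 members were called lower. With only the 8 arrays at 4 h in the fit 2 were called lower and 0 higher, and the median was −0.585. The share of cells in the cycle was not measured, so fewer dividing cells and less of each RNA per cell cannot be told apart.

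The promoters of mitosis genes carry 2 short elements, the CCAAT box and the CHR (TTTGAA), which are known to time transcription to the end of the cycle. Of the 8 members called lower, 7 had a promoter in the table, of which 5 held CCAAT and 5 the CHR (71.4% each). Mki67, Top2a, Smc2 and Aurka held both, Bub1 only CCAAT, Kif2c only the CHR and Mad2l1 neither. Those of Mki67, Top2a and Smc2 are shown as examples with more than 1 CHR match, and both elements are in capitals on either strand. The windows span 250 bases before to 50 bases after the start (RefSeq, GRCm38.p6), at chr7:135716330-135716629 on the minus strand for Mki67, chr11:99024140-99024439 on the minus strand for Top2a and chr4:52438971-52439270 on the plus strand for Smc2.
Mki67: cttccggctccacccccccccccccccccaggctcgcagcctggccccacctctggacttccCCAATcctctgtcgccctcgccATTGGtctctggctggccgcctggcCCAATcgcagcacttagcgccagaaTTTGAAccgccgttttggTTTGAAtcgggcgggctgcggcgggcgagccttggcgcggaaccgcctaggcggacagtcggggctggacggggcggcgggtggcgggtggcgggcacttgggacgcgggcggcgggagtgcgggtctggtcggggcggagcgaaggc
Top2a: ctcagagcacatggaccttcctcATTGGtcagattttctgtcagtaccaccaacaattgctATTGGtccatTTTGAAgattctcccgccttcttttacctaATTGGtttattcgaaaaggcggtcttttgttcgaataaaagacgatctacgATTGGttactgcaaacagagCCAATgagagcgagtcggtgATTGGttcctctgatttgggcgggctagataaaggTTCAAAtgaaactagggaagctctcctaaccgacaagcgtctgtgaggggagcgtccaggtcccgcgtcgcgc
Smc2: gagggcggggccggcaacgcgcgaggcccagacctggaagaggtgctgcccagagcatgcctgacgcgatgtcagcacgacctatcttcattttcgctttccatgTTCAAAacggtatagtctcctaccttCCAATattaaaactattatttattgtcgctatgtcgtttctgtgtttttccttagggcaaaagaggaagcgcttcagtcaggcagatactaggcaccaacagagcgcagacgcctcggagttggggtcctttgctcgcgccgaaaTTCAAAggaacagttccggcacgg
Mki67 has 3 CCAAT boxes and 2 CHR matches, Top2a has 6 and 2, and Smc2 has 1 and 2. Of the 23 tested mitosis genes with a promoter in the table, CCAAT stood in 82.6% and the CHR in 78.3%, beside 42.8% and 14.1% of the promoters of all tested genes. Among the 64 genes called lower with a promoter the shares were 43.8% and 23.4%, and among the 48 called higher they were 35.4% and 16.7%. Neither motif contains the other, and a match is a description of the letters alone.

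Mki67, the gene of the proliferation antigen Ki-67, had signals of 88.8, 88.1, 54.2 and 95.5 in CHOP-/- cells, against 292.1, 221.3, 178.8 and 186.4 in wild type cells. The groups did not overlap, with CHOP-/- array C the lowest. The log2 difference was −1.38 (SE 0.26, adjusted p = 0.00326), beside −0.11 untreated (adjusted p = 0.941) and −0.51 at 8 h (adjusted p = 0.324). In CHOP-/- cells Mki67 fell by 1.20 log2 from the untreated level (adjusted p = 0.0165), against a difference of 0.07 in wild type cells that was not called (adjusted p = 0.991), and the difference in response was −1.27 (adjusted p = 0.996).

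Smc2, a core subunit of condensin, had 214.9, 243.8, 99.7 and 161 in CHOP-/- cells and 391.6, 359.7, 359.8 and 399.8 in wild type cells. Its partner Smc4 had 385.6, 394.4, 210.5 and 320.1 in CHOP-/- cells and 542, 745.4, 586.4 and 521.5 in wild type cells. Both were without overlap and lowest on CHOP-/- array C, with log2 differences of −1.11 (SE 0.24, adjusted p = 0.0106) and −0.86 (SE 0.20, adjusted p = 0.0163). Neither was called untreated or at 8 h.

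The other called members were taken up after their values were seen. Bub1 and Mad2l1, of the spindle checkpoint, differed by −0.997 (adjusted p = 0.0261) and −0.71 (adjusted p = 0.0421). Top2a, the topoisomerase that untangles chromosomes, had 105.8, 78.2, 67.8 and 73.3 in CHOP-/- cells and 204.1, 137.6, 143.3 and 144.5 in wild type cells (−0.91, adjusted p = 0.0417). The mitotic kinase gene Aurka (−0.72) and the motor gene Kif2c (−0.78) completed the 8. The exception was Kif20a, also a mitotic motor, which was higher at 4 h (1.09, adjusted p = 0.00376), untreated (1.57) and at 8 h (1.23). Another Kif20a probe set gave −0.62 at 4 h and was not called (adjusted p = 0.305 in a fit of every probe set).

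DNA replication genes had the same sign without a call. Of 32 tested, 30 were negative, none was called, and the median was −0.35, beside −0.12 untreated and −0.37 at 8 h. Over all 5688 tested genes 2730 were negative and 2.5% were called at 4 h, and the list was not tested against these shares. Their summed signal was 6486.5, 6507.6, 6590.8 and 6471.2 in CHOP-/- cells and 8400.9, 8227.8, 6716.8 and 9138.7 in wild type cells, with wild type C just above the CHOP-/- arrays. Pclaf, whose product binds PCNA at the replication fork, was called outside these lists. It had 83.9, 90.7, 82.8 and 93.9 in CHOP-/- cells, against 207.9, 283.9, 214.8 and 206.5 in wild type cells, with a log2 difference of −1.30 (SE 0.19, adjusted p = 0.000238). Further called genes of cell division, named after their values were seen, were Ect2 (−1.05) and Anln (−0.79) of cytokinesis, Haus6 (−0.91) and Dlgap5 (−0.79) of the spindle, and Ccnd2 (−1.10), a D-type cyclin gene. Cdkn2b, the cyclin-dependent kinase inhibitor p15, was higher (1.01, adjusted p = 0.00263), with 719.2 to 847.1 in CHOP-/- cells and 324.9 to 459.1 in wild type cells.

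**Figure D4:**
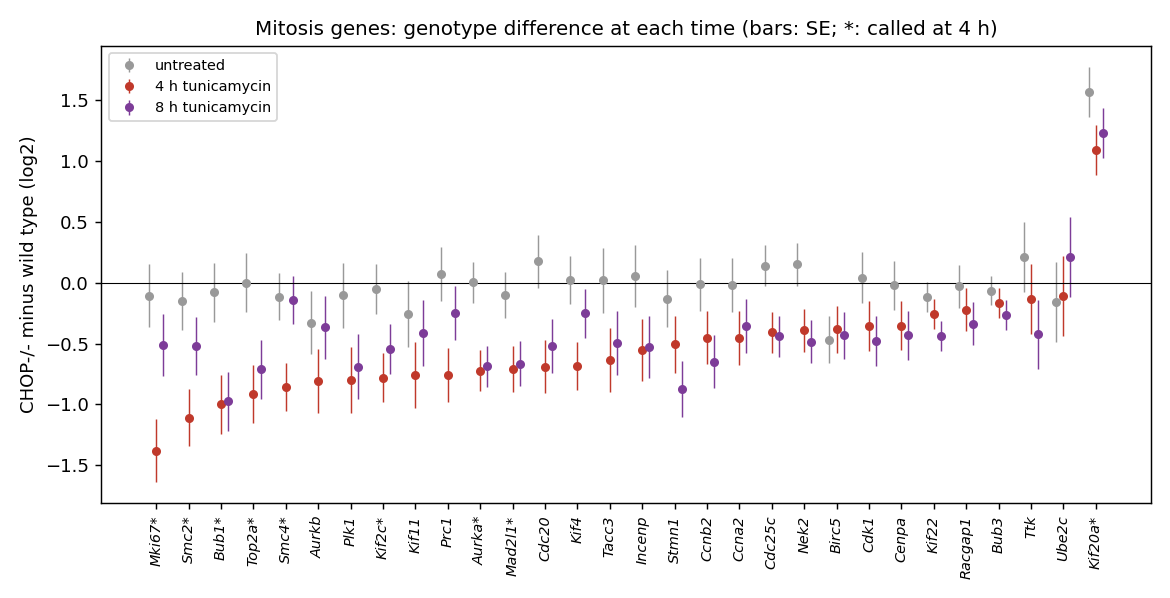
Log2 difference of CHOP-/- minus wild type (y axis) for each of the 30 tested mitosis genes (x axis), untreated (grey), at 4 h (red) and at 8 h (purple), with the SE as bars and an asterisk at the genes called at 4 h. At 4 h all but Kif20a lie below 0, while the untreated values lie around 0 with a median of −0.025.

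The 15 largest negative differences began with Ddit3, Cxcl5 and Ptx3. Cxcl5, a chemokine for neutrophils, had signals of 807.8, 1256.3, 272.8 and 777.7 in CHOP-/- cells and 1918.7, 3005.1, 3583.2 and 3478.1 in wild type cells. The highest CHOP-/- array, B, lay below the lowest wild type array, A. The log2 difference was −2.07 (SE 0.43, adjusted p = 0.00784). No other of the 24 tested chemokine, cytokine and NF-κB genes was called (median 0.009), beside 2.5% called among all genes.

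Ptx3, a soluble pattern recognition protein of the matrix, had 90.4, 123.7, 90 and 136.7 in CHOP-/- cells, against 225.4, 699.4, 485.2 and 654.5 in wild type cells. Wild type A was the lowest of its group and still above all CHOP-/- arrays. The difference was −2.04 (SE 0.36, adjusted p = 0.00214), beside −0.54 untreated (adjusted p = 0.714) and −1.87 at 8 h (adjusted p = 0.00296). Without wild type A and B their differences were −2.298 (adjusted p = 0.0528) and −2.34 (adjusted p = 0.00265). Kitl, the stem cell factor gene, was under the filter on all CHOP-/- arrays and at least 1.57-fold lower there (fitted −1.39, adjusted p = 0.00326), with 11.1 to 17.7 in CHOP-/- cells and 32.2 to 59.2 in wild type cells.

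The other large negative differences came from varied functions. Lonp1, the mitochondrial protease, had 177.9, 160, 209.9 and 189.2 in CHOP-/- cells and 374.2, 546.5, 410.6 and 575.5 in wild type cells (−1.31, SE 0.17, adjusted p = 6.91e-05), and was called at all 3 times. Glce, which makes iduronic acid in heparan sulfate, differed by −1.43, Aebp2, a cofactor of Polycomb repressive complex 2, by −1.89, and Cap1, an actin regulator, by −1.66. AI506816 differed by −1.78. Each of these 4 was also called untreated and at 8 h. Ets2, a transcription factor gene (−1.30), and Clcn3, an endosomal chloride exchanger (−1.20), were called at 4 h and 8 h but not untreated. Mtm1, the myotubularin phosphatase (−1.49), and 2700099C18Rik (fitted −1.27, at least 1.59-fold lower) were called at 4 h only. A second probe set of Mtm1 was also called (−1.15, adjusted p = 0.0494 in a fit of every probe set).

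On the higher side, Amacr, a racemase of branched-chain fatty acid oxidation, came first. It had 60, 89.8, 82.6 and 82.2 in CHOP-/- cells and 18.2, 26.7, 9 and 3.1 in wild type cells. All wild type arrays lay under the filter, so it was at least 2.75-fold higher in CHOP-/- cells (fitted 2.21, SE 0.27, adjusted p = 6.09e-05). Rab3d, a GTPase of secretory vesicles, had 70.1, 108.7, 167.2 and 177 in CHOP-/- cells and 40.8, 37.4, 23.3 and 17.7 in wild type cells (fitted 1.94, adjusted p = 0.000817). Col15a1, a basement membrane collagen, had 233.8, 285.3, 121.4 and 172.9 in CHOP-/- cells and 48.8, 48.8, 44.6 and 109.9 in wild type cells, with wild type D just below CHOP-/- C (1.66, adjusted p = 0.000914). These 3 genes were higher in CHOP-/- cells at all 3 times.

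The others among the 15 largest positive differences, after Amacr, Rab3d, Col15a1 and Slc7a3, ran from 1.46 for Rgcc, a cell cycle regulator, to 1.20 for Jup, the junction protein plakoglobin. Between them lay Strap (1.37), the guanylate cyclase subunit gene Gucy1b1 (1.35), the microfibril gene Mfap4 (1.35), the Src adaptor gene Efs (1.33), the methionine salvage gene Adi1 (1.31), Slc7a7, the phosphatase gene Ptp4a3 (1.23), C1qtnf12 (1.21) and Smim1 (1.21). Strap had 1302.7, 1071.6, 928.8 and 960.6 in CHOP-/- cells and 731.6, 571.7, 302.2 and 203.4 in wild type cells, with wild type A and B nearer to the CHOP-/- arrays. C1qtnf12 had the opposite order within wild type, with 140.7 to 171 in CHOP-/- cells and 53.7, 43.4, 96.2 and 96.3 in wild type cells, and its difference without wild type A and B was 0.64. Smim1, Strap and C1qtnf12 were not called in 14 of 19, 12 of 20 and 10 of 19 alternative settings.

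Among 52 tested matrix genes Col15a1 and Mfap4 were higher and Ptx3 and Mmp11, a stromal protease gene (−0.90), were lower, with a median of 0.022. Over all tested genes 1.18% were called higher and 1.32% lower, and the counts in this paragraph were not tested against these shares. In the cholesterol list 14 of 15 tested genes were positive with a median of 0.31, as were 2958 of all 5688 tested genes. Untreated, 5 of the 15 were positive, with a median of −0.119. Msmo1, a sterol oxidase gene, alone was called at 4 h (1.01, adjusted p = 0.0265), and was not called in 9 of the 20 alternative settings. Its signals were 753.6, 543.5, 1064.6 and 795.9 in CHOP-/- cells and 334.1, 416.5, 503.2 and 314.9 in wild type cells, with no overlap. Igfbp3 (0.96) was the single call among 15 p53 targets, Actg2 (0.48) among 12 smooth muscle genes and Ndufa5 (−0.51) among 45 respiratory chain genes. Of 22 glycolysis and hypoxia genes Vegfa was higher and Adm lower (−1.11), and Adm was lower at all 3 times.

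No member was called among 22 cell death genes (median 0.005), 23 immediate-early genes (0.25), 20 interferon-stimulated genes (0.23), 20 NRF2 genes (−0.10), 30 proteasome genes (0.022) and 18 Hox genes (0.043). Over all tested genes 2.5% were called, and lists this short were not tested against that share. The marker lists of other cell types were also without a call, namely 11 striated muscle genes (median 0.006), 6 neural genes (−0.30), 3 endothelial (0.36), 3 epithelial (0.20) and 3 skeletal and adipocyte genes (0.29) and 1 erythroid gene (−0.18). The summed signal of 11 endothelial markers, of which only 3 passed the filter, was 1068.8 to 1371.6 in CHOP-/- cells and 801.2 to 989.1 in wild type cells, without overlap. These sums did not overlap untreated either (1134.7 to 1256 against 651.9 to 976.2), nor at 8 h (857.8 to 1263.5 against 658.1 to 783.9). The erythroid and striated muscle sums did overlap at 4 h. Among all single tested genes, 7.88% had no overlap at 4 h. The Y-linked Eif2s3y, Kdm5d and Uty lay at or under 6.8 on all 8 arrays. Xist, which silences an X chromosome in females, was not called (−1.02, adjusted p = 0.305), with 42.9 to 96.9 in CHOP-/- cells and 54.9 to 253.9 in wild type cells.

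The 4 h calls were set beside those of the other times. Untreated, 56 of the 5688 genes were called (0.985%), with 0.615% higher and 0.369% lower in CHOP-/- cells. At 8 h 237 were called (4.17%), with 2.25% higher and 1.92% lower. Of the 67 genes higher at 4 h, 29 were also higher untreated (43.3%) and 41 at 8 h, 23 were higher at all 3 times and 20 were called at 4 h only. Of the 75 genes lower at 4 h, 16 were also lower untreated (21.3%) and 40 at 8 h, 15 were lower at all 3 times and 34 were called at 4 h only. Whether these shares differ between the directions was not tested. The higher genes had medians of 0.63 untreated, 0.88 at 4 h and 0.73 at 8 h. The lower genes had medians of −0.31 untreated, −0.89 at 4 h and −0.69 at 8 h. In turn 29 of the 35 genes higher untreated (82.9%) and 16 of the 21 lower (76.2%) were called the same way at 4 h. The calls of the 3 times share each gene's estimate of spread from one fit, so they are not independent. Arrays of one letter may also share a source across times, which the labels do not state. Wild type Lyz2 on A to D was 651.7, 1551.3, 134.2 and 167.7 untreated and 633.5, 1332, 88.7 and 76.7 at 8 h. The fit behind these calls did not pair arrays by letter.

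**Figure D5:**
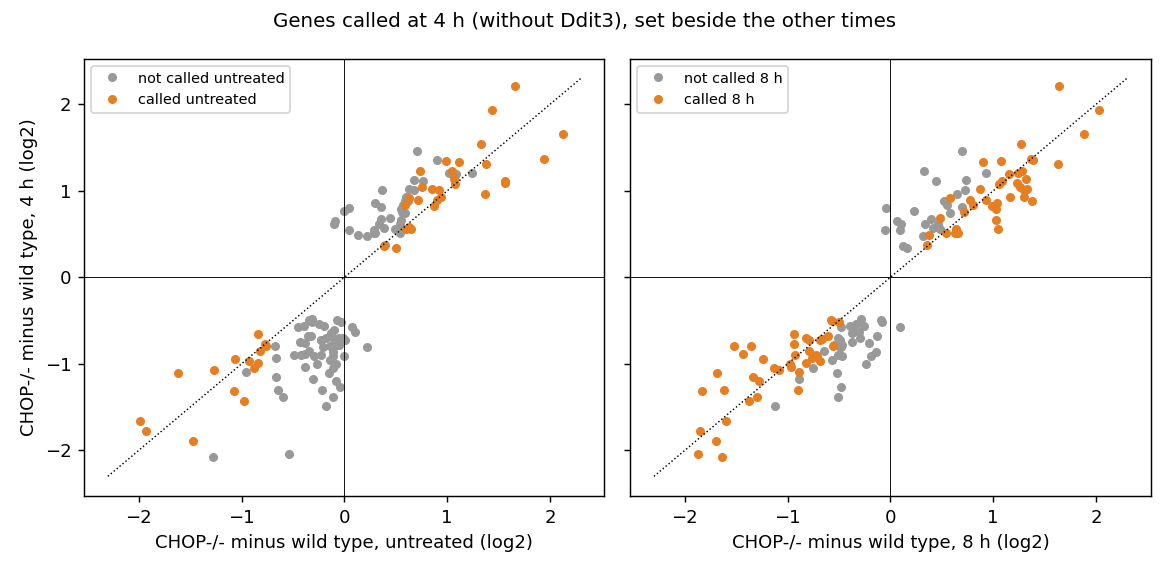
Log2 difference of CHOP-/- minus wild type at 4 h (y axis) against that of untreated cells (left) and at 8 h (right) for the genes called at 4 h without Ddit3, with those also called at the other time in orange and the dotted line marking equal differences. Many genes lower at 4 h lie near 0 untreated, where their median was −0.31.

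The tests of a change in the genotype difference gave no call. For the response at 4 h, the change from untreated cells in CHOP-/- cells less that in wild type cells, limma called 0 of 5688 genes at an adjusted p under 0.05 and 230 had an unadjusted p under 0.05 (4.04%). Ddit3 was nearest (−2.68, SE 0.50, adjusted p = 0.0936), followed by Pclaf (−1.08, adjusted p = 0.996). For the genotype difference at 8 h less that at 4 h, limma again called 0 genes, with 250 at an unadjusted p under 0.05 (4.4%). A gene called at 4 h and not untreated is therefore not shown to differ between those times.

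Genes that changed in wild type cells under longer stress were looked up in the 4 h comparison. Of 946 genes called between 8 h and untreated in wild type cells (16.6%), 550 were higher at 8 h (9.67% of tested genes) and 396 lower (6.96%). Of the 550, 25 were lower and 5 higher in CHOP-/- cells at 4 h, 399 had a negative difference, and the median was −0.17. Among all 5688 tested genes 1.32% were lower and 1.18% higher, 2730 had a negative difference and the median was 0.014. The 25 included Ddit3, Ppp1r15a, Ero1a, Sel1l, Vcp, Cebpg, Kitl, Ptx3, Lonp1, Clcn3, Ets2 and Piga. Of the 396 genes that wild type cells lowered by 8 h, 4 were lower and 8 higher in CHOP-/- cells at 4 h, with a median of 0.11. That contrast and the 4 h comparison share no array, but both use the same estimate of each gene's spread from one fit, so their calls are not independent. Arrays of one letter may also share a source across times.

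Chromosome 4 carried 19 of the 142 calls (13.4%) and 6.27% of the tested genes. Chromosome 14 carried 10 (7.04% of calls, 3.4% of tested genes) and chromosome 6 carried 14 (9.86% and 5.3%). Several called genes lay close together in the GRCm38.p6 gene order, a pattern noticed after the calls were seen. Vcp, Tesk1, Hint2 and Clta lay within 38 genes of chromosome 4, 12 of them tested, and Col15a1, Invs, Smc2 and Rad23b within 40 genes of the same chromosome. Mettl3, Slc7a7, Efs and Pck2 lay within 53 genes of chromosome 14, and Mgp, Strap and Aebp2 within 19 genes of chromosome 6. Each of these runs held both higher and lower genes, and the strains of the CHOP-/- and wild type cells are not given, so strain and CHOP genotype cannot be told apart in these arrays.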

How the data were processed

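The authors deposited 1 table of probe set signals (unit: intensity, linear scale), which per the values was scaled so that the mean of each of the 24 arrays, trimmed by 2% at each end, is 250.1 to 250.2. Neither labels nor files name the software that made it. Of 12488 probe sets, 66 controls were left out and 10833 had 1 gene in the platform annotation, for 8251 genes (10817 of those probe sets matched RefSeq, 396 had several genes and 1193 none). Values were set to log2(signal + 5.7), the 20th percentile of signals, and quantile-normalized, so fold changes of dim genes are understated. The probe set with the highest mean stood for its gene. Tests were kept to the 5688 genes with a mean log2 value over 5.068 (a signal of 27.8). All 24 arrays entered one limma fit (limma 3.58.1, R 4.3.3, trended prior, 6 group means, 18 residual degrees of freedom), and adjusted p-values are two-sided Benjamini-Hochberg values over all tested genes from that fit unless another is named. The script was tested on simulated data. The 16 genes always named, the 15 largest called differences each way without overlap, up to 4 called genes of each of 32 lists, measured fibroblast, leukocyte, erythroid and sex-linked markers and called neighbours of Ddit3 could be named, and others are named as chosen later or as values of a list. The members and lists were chosen with earlier results of these data known. Alternatives were the pseudocount, the filter, the normalization, array weights, the mean of a gene's probe sets, a block by letter, the 8 arrays alone, and leaving arrays out. Promoters came from RefSeq (GRCm38.p6). Figures were drawn with matplotlib 3.10.9.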

Additional observations from a re-analysis of the deposited data

Results flagged for a closer look

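In 244 groups of 4 arrays at 4 h, over 122 genes, a sample was looked for whose gap to the nearest other exceeded Dixon's 95% critical value as a share of the group's range, and 12 were found, where chance alone flags about 1 in 20 groups. The number found was near that share. The gaps were taken on the normalized log2 scale and the signals given are those deposited. Deposited signals need not show the same gap, and those of Atf4, Kitl and Cd3e do not. For Atf4 the deposited signal furthest from the others was the low one of CHOP-/- array D, 3724.4. Among stress and cell cycle genes, Mki67 on CHOP-/- array C was low (gap 0.894, signal 54.2 against 88.1 to 95.5 on the other CHOP-/- arrays). Atf5 on CHOP-/- array A was high (0.89, signal 572.4 against 417.5 to 424.2). Vcp on CHOP-/- array A was low (0.891, signal 2037.4 against 2267.4 to 2465.6), and Atf4 on CHOP-/- array B was high (0.841, signal 4492.8 against 3724.4 to 4338.5). Kitl on wild type array D was low (0.878, signal 32.2 against 40.1 to 59.2). Car6 on CHOP-/- array A was high (0.888, signal 5.1 against 3.8 to 4.3), below the filter.

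The others were markers of other cells or of sex. Adgre1, the F4/80 antigen of macrophages, was high on CHOP-/- array A (0.918, signal 29.8 against 4.4 to 5.5), as was Spi1, the factor PU.1 (0.85, signal 77.9 against 43.6 to 48.5). Cd3e was low on CHOP-/- array B (0.853, signal 7.8 against 8.7 to 11.8) and Fcgr3 on wild type array D (0.883, signal 8.3 against 17 to 31.1). Epb42 was high on wild type array B (0.924, signal 8.9 against 1.8 to 3.5) and Kdm5d on wild type array C (0.916, signal 5.1 against 2.2 to 2.4). Adgre1, Cd3e, Fcgr3, Epb42 and Kdm5d were below the filter.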

How the results depend on the processing

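Of 67 genes called higher and 75 called lower, without wild type A and B 16 and 17 were called, with only the 8 arrays 22 and 31, and with arrays centred on their medians 43 higher. Leaving out 1 array at a time gave 36 to 71 higher and 40 to 84 lower, with 40 and 40 without CHOP-/- C, 39 higher without CHOP-/- D and 36 and 42 without wild type B. Fewer arrays leave fewer residual degrees of freedom, and the cause was otherwise not tested. The call count of the response difference, 0, became 1 with a pseudocount of 32 and 1 with the letters as a replicate block over all times, and was 0 to 1 with 1 array left out. Vcp reversed to 0.334 with the mean of its probe sets, 3 of which lay under the filter. The letters did not pair the arrays at 4 h (r of same-letter deviations 0.46, −0.07, 0.21 and 0.04 for A to D), and the replicate block gave 93 higher and 108 lower within time and 89 and 112 over all times. Of 48 named called genes, 15 kept the call without wild type A and B, and those of Aebp2, AI506816, Amacr, Efs, Glce, Kitl, Pclaf, Ptp4a3, Ptx3, Rab3d, Slc7a3 and Slc7a7 ended in no setting that tested them. Dim probe sets limit what could be tested, and 4 arrays a group limit the precision.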

Other observations

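The summed signal of 15 tested cholesterol synthesis and uptake genes was 9838, 7617.6, 14720.8 and 10136.4 on CHOP-/- arrays A to D, against 6622.3, 8459.6, 9143.4 and 7590.7 on wild type arrays A to D. CHOP-/- array C was the highest of the 8 and the groups overlapped. The summed signal of 26 tested ER chaperones and folding enzymes was 45570.4, 41092.7, 33470.6 and 34529.5 on the CHOP-/- arrays and 37340.9, 44476.3, 39733.4 and 43171 on the wild type arrays, so that CHOP-/- C and D were the lowest of the 8 while CHOP-/- A was the highest. Creld2, an ER-resident gene of the folding list, was likewise lower on CHOP-/- C and D than on A and B, with 1292.5, 1560.7, 465.3 and 634.5, against 1354.9, 1333.2, 938.5 and 1591.6 in wild type cells, and was not called (−0.54, limma adjusted p = 0.303).

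Of the called genes, 22 had 23 further tested probe sets. At 4 h, 19 of these had the sign of the probe set used and 4 had the opposite sign, those of Agap1, Akap8, Inpp1 and Kif20a. Only those of Mtm1 and Rad23b were also called in the fit of every probe set.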
